A study of Homo sapiens with 4 samples.

Results

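Transcripts of the receptors, the receptor substrate and the binding proteins of the insulin-like growth factor (IGF) system were followed in TE5 cells, labelled as a line from a human squamous carcinoma of the oesophagus, with and without stable overexpression of the transcription factor ETS1. The group holds 10 genes of the 55764 listed, chosen by name: the receptors IGF1R, IGF2R and INSR, the substrate IRS1, and the binding proteins IGFBP2, IGFBP3, IGFBP4, IGFBP5, IGFBP6 and IGFBP7. The 2 ETS1 libraries came from TE5 cells that received an ETS1 overexpression vector with a CMV promoter, delivered as lentivirus, per the labels. The 2 control libraries came from TE5 cells that received the empty backbone and are labelled WT for genotype. Both arms were grown in the same serum-supplemented medium, and no time after infection is given. The labels number the libraries 1 and 2 in each arm and do not say whether these are separate infections or cultures, so the p-values measure only the spread between these libraries.

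IGF1 and IGF2 are secreted ligands that bind the receptor tyrosine kinase encoded by IGF1R. The insulin receptor, encoded by INSR, is its close relative and can pair with it. The active receptors phosphorylate docking proteins such as IRS1, which recruit PI3 kinase and so switch on AKT and mTOR, a route to growth and survival in many carcinomas. IGF2R binds IGF2 without a kinase of its own and carries it to lysosomes. The IGF binding proteins hold the ligands outside the cell, and they can restrain or prolong ligand action, depending on the protein and on proteases that cut it.

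Values are the authors' FPKM, in which the fragments of a gene are divided by its length and by the size of the library. Reads recovered from the steps of these values came to 40356722 and 44119653 in the controls and 57269891 and 56502777 in the ETS1 libraries, so the ETS1 arm was the deeper one. ETS1 itself was at 0.491 and 0.509 FPKM in the controls and at 1.84 and 1.87 FPKM in the ETS1 libraries. The 5 simple epithelial markers summed to 16.1 to 16.3 FPKM in the controls and 16.8 to 16.9 FPKM in the ETS1 libraries. Among them KRT8 rose (log2 change 0.62) and KRT18 fell (-0.29), EPCAM (-0.23) did not pass, CDH1 was under the filter at 0.567 to 1.08 FPKM, and KRT19 was at most at 0.0224 FPKM in any library. The 4 squamous markers summed to at most 0.0935 FPKM in any library, all of it KRT13 in the controls, where TP63, KRT5 and KRT14 each stood at 0; these 3 reached at most 0.0165 FPKM in the ETS1 libraries. The defining squamous markers were thus at or near 0 in all 4 libraries, which goes against the squamous label. The 5 fibroblast markers summed to 2.11 to 2.23 FPKM in the controls and 3.02 to 3.08 FPKM in the ETS1 libraries, nearly all of it COL1A1, while COL1A2 was listed at 0 in both controls and reached at most 0.00157 FPKM. The 3 leukocyte markers summed to at most 0.0926 FPKM in any library and the 2 endothelial ones to at most 0.0506 FPKM. The part of these shifts in the results below was not tested.

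Of the 10 genes, 7 had a mean of at least 1 FPKM over the 4 libraries and were tested with limma on log2(FPKM + 1). With an adjusted p under 0.05 as the threshold, 3 rose (IGF2R, IGFBP5 and IGFBP6), 3 fell (IGF1R, IGFBP2 and IGFBP4) and INSR did not pass. Over all 14306 genes tested, 59.1% passed, 30.7% higher and 28.4% lower, so a count of 6 in 7 says little about these genes as a group. The median log2 change of the 7 was 0.031, against 0.016 over all genes tested, and the median absolute change was 0.17 against 0.20. IRS1, IGFBP3 and IGFBP7 were under the filter and had no main test, and each was higher in both ETS1 libraries than in both controls. The 2 groups did not overlap for 6 of the 7 tested genes, which was also the case for 82.0% of all tested genes. Among genes above 0 in any library the share without overlap was 55.9%. With 2 libraries against 2, the smallest two-sided p that an exact permutation test of one gene can give is 0.333. The single-gene p-values therefore rest on the variance that limma shares across genes.

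**Figure D1:**
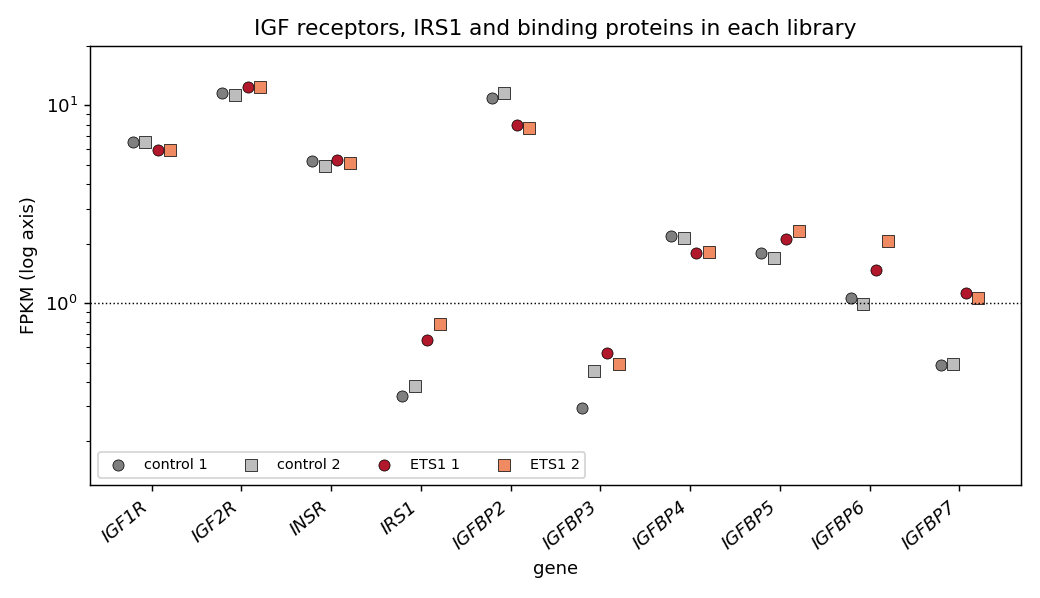
FPKM of the 10 genes (horizontal axis) in each of the 4 libraries, on a log axis, with one point per library and the filter of 1 FPKM as a dotted line. IGFBP2 lies between 10.9 and 11.5 FPKM in the controls and between 7.69 and 7.94 FPKM in the ETS1 libraries, and INSR is the gene whose groups overlap.

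In the controls IGF2R and IGFBP2 had the highest levels per length, at 11.4 ± 0.135 and 11.2 ± 0.472 FPKM (SD, n = 2 each), and their ranges overlapped. The gene length behind the IGF2R values, read back from its reads and FPKM, was 9935 bases against 17843 exon bases in GENCODE 29, so its place in the order depends on the annotation used. IGF1R, INSR, IGFBP4, IGFBP5, IGFBP6 and IGFBP7 followed in that order with no overlap between neighbours, and IGFBP3 and IRS1 came last with overlapping ranges. In the ETS1 libraries IGF2R stood alone at the top with 12.4 ± 0.0530 FPKM (SD, n = 2). IGFBP5 had passed IGFBP4 there, and IGFBP4 and IGFBP6 overlapped. IRS1 was above IGFBP3 in both ETS1 libraries.

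The sequence before the transcription start was compared because the overexpressed protein is a DNA-binding factor of the ETS family, whose members recognise a GGAA core. RefSeq windows of 250 bases before the start (GRCh38.p14) were found for 9 of the 10 genes, and none for IGFBP7. The core GGAA, read on both strands, lies in 92.7% of all 35116 such windows and so separates nothing. The longer CCGGAA, which contains that core and was also read on both strands, lies in 14.5% of them. It was present once in the windows of IRS1, IGFBP5, IGF2R, IGFBP3 and IGFBP6, all of them genes with higher values in both ETS1 libraries. It was absent from the windows of IGF1R, INSR, IGFBP4 and the 3 starts of IGFBP2. The still longer CCGGAAGT was in none of them and in 3.42% of all windows. Of the windows with CCGGAA 4 are shown, together with that of one of the 3 IGFBP2 starts, 5′ to 3′ on the gene's strand. Capitals mark CCGGAA or its reverse complement TTCCGG, and the IGFBP2 window has none.
IRS1 (chr2:226799821-226800070, minus strand): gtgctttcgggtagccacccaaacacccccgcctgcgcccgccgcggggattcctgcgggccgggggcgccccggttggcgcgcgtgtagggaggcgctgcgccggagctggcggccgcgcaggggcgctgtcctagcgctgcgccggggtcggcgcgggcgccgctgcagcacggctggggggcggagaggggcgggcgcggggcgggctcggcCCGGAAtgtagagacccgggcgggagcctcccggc
IGFBP5 (chr2:216695550-216695799, minus strand): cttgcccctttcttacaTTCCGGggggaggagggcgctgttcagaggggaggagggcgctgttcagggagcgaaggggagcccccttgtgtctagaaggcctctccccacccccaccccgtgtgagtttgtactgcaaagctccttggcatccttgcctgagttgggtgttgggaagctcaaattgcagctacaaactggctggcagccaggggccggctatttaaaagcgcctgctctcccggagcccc
IGF2R (chr6:159968832-159969081, plus strand): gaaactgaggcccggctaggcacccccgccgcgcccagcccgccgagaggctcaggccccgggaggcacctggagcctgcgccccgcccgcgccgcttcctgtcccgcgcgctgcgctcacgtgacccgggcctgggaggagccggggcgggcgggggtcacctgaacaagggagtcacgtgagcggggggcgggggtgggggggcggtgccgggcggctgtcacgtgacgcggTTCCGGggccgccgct
IGFBP3 (chr7:45921273-45921522, minus strand): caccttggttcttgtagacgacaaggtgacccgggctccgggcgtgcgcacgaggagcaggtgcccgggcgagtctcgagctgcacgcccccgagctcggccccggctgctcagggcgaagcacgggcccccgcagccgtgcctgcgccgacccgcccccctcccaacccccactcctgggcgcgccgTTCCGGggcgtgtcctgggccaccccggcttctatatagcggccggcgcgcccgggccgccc
IGFBP2 (chr2:216633170-216633419, plus strand): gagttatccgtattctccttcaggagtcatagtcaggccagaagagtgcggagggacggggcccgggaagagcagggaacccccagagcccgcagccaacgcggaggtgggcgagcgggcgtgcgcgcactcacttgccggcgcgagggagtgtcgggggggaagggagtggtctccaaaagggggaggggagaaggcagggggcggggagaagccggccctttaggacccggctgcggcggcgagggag
The match in IRS1 began 35 bases before the start, in IGF2R 16, in IGFBP3 62, in IGFBP5 233 and in IGFBP6 240 bases before it. Across all tested genes the same letters were in the windows of 29.0% of 3087 genes called higher, 34.4% of 2416 called lower and 29.8% of 3421 that did not pass, counting genes with a window under their symbol. The share was thus highest among the genes called lower, while the members that hold the letters had higher values, and the difference between these shares was not tested. A gene counted there if any of its windows held the letters. These shares, like the list of members with the letters, are per gene, while the 14.5% is per window over all windows. The IGFBP6 window is not shown because 231 of its 250 bases are exon in GENCODE 29, whose start for this gene (53097436 on chromosome 12) lies upstream of the RefSeq one. The IGFBP3 and IGFBP2 windows shown also lie inside their genes in GENCODE 29, which start at 45921874 (minus strand) and 216632828. They hold 2 and 25 exon bases. All distances are from the RefSeq starts. The matches are letters in a window, and binding was not measured here.

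Among the receptors, IGF1R, the main signalling receptor for IGF1 and IGF2, had 6.53 and 6.55 FPKM in the controls and 5.93 and 5.94 FPKM in the ETS1 libraries. Both ETS1 values were below both controls, and replicates lay much closer to each other than the groups did. The ratio of means was 0.908, and the log2 change was -0.12 (standard error 0.033, limma adjusted p = 0.0314). IGF1R lies on chromosome 15 (98648539 to 98964530, plus strand, GENCODE 29 on GRCh38), where 316 of 390 tested genes were lower and the median log2 change was -0.23. Of the tested genes of that chromosome, 64.9% had a lower log2 change than IGF1R. When the chromosome median was removed, IGF1R was 0.11 higher on the log2 scale (limma adjusted p = 0.0327), in a fit that called 61.4% of genes, so its direction depended on whether the chromosome was taken into account. The call was lost without each of the 4 libraries in turn, where the change was -0.12 throughout (adjusted p = 0.0749 to 0.146). In the 10 other tested genes within 2 Mb of IGF1R, 8 were lower, 2 were called lower, 2 were called higher and the median was -0.031.

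IGF2R, the receptor that clears IGF2, had 11.5 and 11.3 FPKM in the controls and 12.4 and 12.4 FPKM in the ETS1 libraries. The groups did not overlap, and the ratio of means was 1.09. Its log2 change was 0.11 (standard error 0.030, limma adjusted p = 0.0310). The authors' deposited table gives IGF2R a log2 fold change of 0.092 (adjusted p = 0.0877), and so IGF2R did not pass there, where 51.2% passed among the 15683 genes given an adjusted p. It also lost its call with the chromosome 6 median removed, where the change was 0.041 (limma adjusted p = 0.289), and without each of the 4 libraries in turn, at 0.098 to 0.12 (adjusted p = 0.0529 to 0.162). INSR had 5.24 and 4.93 FPKM in the controls and 5.31 and 5.12 FPKM in the ETS1 libraries, and these ranges overlapped. Its log2 change was 0.031 with a limma 95% interval of -0.085 to 0.15 (adjusted p = 0.577). The ratio of IGF1R to INSR was 1.25 and 1.33 in the controls and 1.12 and 1.16 in the ETS1 libraries, and that of IGF2R to IGF1R was 1.76 and 1.73 against 2.08 and 2.09. Neither ratio overlapped between the groups: the first was lower and the second higher with ETS1.

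IRS1, the docking protein that links the active receptors to PI3 kinase, had 0.337 and 0.379 FPKM in the controls and 0.647 and 0.781 FPKM in the ETS1 libraries. These came from 136 and 167 reads against 370 and 441 reads. The ETS1 mean was 1.99 times the control mean, without overlap. IRS1 was under the filter, and limma's voom on recovered reads, an alternative fit over 16652 genes, gave a log2 change of 0.98 (95% interval 0.68 to 1.29, adjusted p = 8.29e-05). That fit called 58.5% of its genes. It and the deposited comparison held genes with a mean of at least 0.5 FPKM over the 4 libraries. IRS1 reached that limit only through the ETS1 libraries, with a mean of 0.714 FPKM against 0.358 FPKM in the controls. Its entry into both thus rested on the group where it was high. With no filter and log2(FPKM + 1), which understates changes at this level, IRS1 had 0.33 (limma adjusted p = 0.0502), where 19.6% of 35055 genes passed. The authors' deposited table gives IRS1 a log2 fold change of 0.91 (adjusted p = 9.37e-07). IRS1 lies on chromosome 2 (226731317 to 226799759, minus strand, GENCODE 29 on GRCh38), and the 4 tested genes within 2 Mb of it were all called higher, with a median of 0.50. The level of IRS1 per level of IGF1R was 0.0517 and 0.0579 in the controls and 0.109 and 0.131 in the ETS1 libraries.

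**Figure D2:**
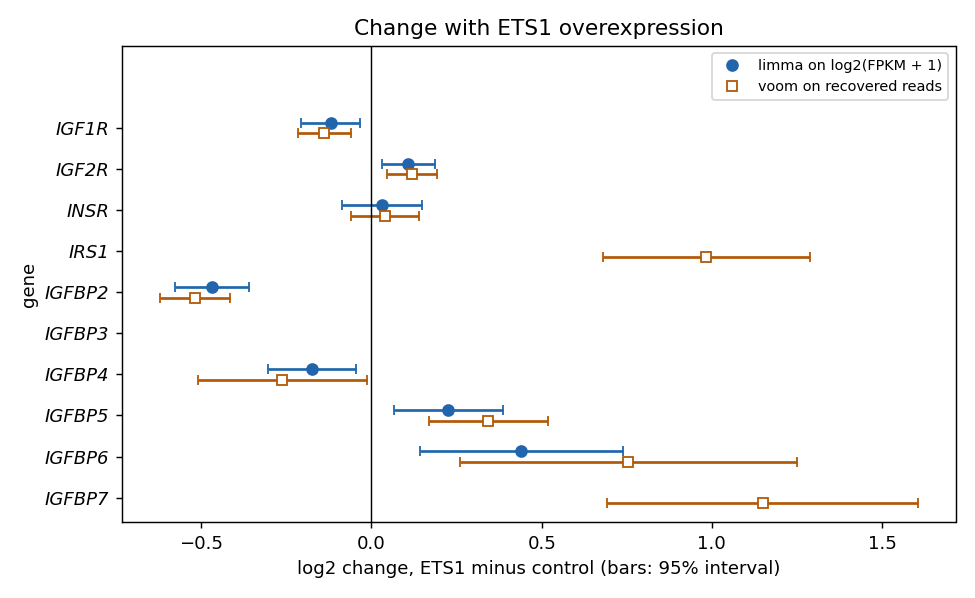
Log2 change of each gene, ETS1 minus control, with 95% intervals: filled circles are limma on log2(FPKM + 1) for the 7 tested genes and open squares are voom on recovered reads for 9 genes. IGFBP2 is the lowest under both, at -0.47 and -0.52, and INSR is the gene whose intervals include 0 in both fits; IGFBP3 has neither fit.

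The binding proteins moved in both directions. IGFBP2, a binding protein often raised in tumours, had 10.9 and 11.5 FPKM in the controls and 7.94 and 7.69 FPKM in the ETS1 libraries, so both ETS1 values were well below the controls. The ratio of means was 0.698, and the log2 change was -0.47 (standard error 0.042, limma adjusted p = 0.00124). Its absolute change was above that of 86.7% of all tested genes. Among the 6 genes called here, IGFBP2 alone kept its call under all 14 alternatives, with a log2 change of -0.43 to -0.56. In the authors' deposited table its adjusted p is 4.28e-14.

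IGFBP4, a binding protein cut by the protease PAPP-A, had 2.19 and 2.14 FPKM in the controls and 1.80 and 1.81 FPKM in the ETS1 libraries. Its values did not overlap, with a log2 change of -0.17 (standard error 0.050, limma adjusted p = 0.0339). Its reads were few, 196 and 209 against 228 and 227, and voom on recovered reads gave -0.26 (adjusted p = 0.0656). The authors' deposited table gives IGFBP4 an adjusted p of 0.203, and without each of the 4 libraries in turn limma gave -0.16 to -0.19 (adjusted p = 0.0769 to 0.142).

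IGFBP5, which binds extracellular matrix as well as IGFs, had 1.80 and 1.68 FPKM in the controls and 2.10 and 2.31 FPKM in the ETS1 libraries. Both ETS1 values were above the controls, and the reads were 469 and 480 in the controls and 778 and 845 with ETS1. Its log2 change was 0.23 (standard error 0.061, limma adjusted p = 0.0289). It shares 298 exon bases with the antisense gene AC007563.2, which was not analysed here, and the use of strand is not given. The IGFBP5 call was lost without control library 2, at 0.20 (limma adjusted p = 0.0935), without ETS1 library 1, at 0.27 (0.0556), and without ETS1 library 2, at 0.18 (0.152). IGFBP6, which prefers IGF2 over IGF1, had 1.07 and 0.993 FPKM in the controls and 1.48 and 2.06 FPKM in the ETS1 libraries. Its ETS1 libraries lay farther apart than its controls, and the mean was 1.77 ± 0.416 FPKM against 1.03 ± 0.0518 FPKM (SD, n = 2 each). The log2 change was 0.44 (standard error 0.115, limma adjusted p = 0.0259). Without ETS1 library 2 it was 0.29 (adjusted p = 0.0729), and without ETS1 library 1 it was 0.59 (adjusted p = 0.0110). The call was also lost without control library 1, at 0.47 (limma adjusted p = 0.0562), and without control library 2, at 0.41 (adjusted p = 0.0770). Reads behind it were 55 and 56 in the controls and 108 and 149 in the ETS1 libraries.

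IGFBP7, a secreted member of the wider family with weaker binding to IGFs and a site in the matrix, had 0.487 and 0.492 FPKM in the controls and 1.13 and 1.06 FPKM in the ETS1 libraries. The ETS1 mean was 2.24 times the control mean, the largest ratio among the 10 genes, from 38 and 42 reads against 125 and 116 reads. Under the filter and so without a main test, it had a voom log2 change of 1.15 (95% interval 0.69 to 1.60, adjusted p = 0.000547). Its control mean (0.490 FPKM) was under the 0.5 FPKM limit of that fit, and its ETS1 mean (1.095 FPKM) was over it. IGFBP7 thus entered that fit and the deposited comparison only through the ETS1 libraries. With no filter limma gave 0.49 (adjusted p = 0.0192), and the authors' deposited table gives 0.94 (adjusted p = 0.00159). The gene (chromosome 4, 57030773 to 57110385, minus strand, GENCODE 29 on GRCh38) shares 270 exon bases with POLR2B on the other strand. Since the use of strand is not given, reads of the pair over these bases cannot be told apart. POLR2B was at 25.0 and 25.3 FPKM in the controls and 25.4 and 24.8 FPKM in the ETS1 libraries, with overlapping ranges, and the antisense gene IGFBP7-AS1 was at most at 0.0102 FPKM.

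IGFBP3, the main carrier of IGFs in serum, had the lowest control mean of the 6 binding proteins, with 0.293 and 0.451 FPKM in the controls and 0.558 and 0.490 FPKM in the ETS1 libraries. Its controls differed from each other by more than the higher control differed from either ETS1 library. With no filter its log2 change was 0.15 with a limma 95% interval of -0.080 to 0.39 (adjusted p = 0.300). It is not among the genes of the authors' deposited comparison, which held genes with a mean of at least 0.5 FPKM. Whole-read steps give about 53 and 89 reads in the controls and 143 and 124 in the ETS1 libraries for the gene length that matches best, 4471 bases, but other lengths matched within 0.05 reads and gave 50 to 56 reads in control 1.

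The make-up of the binding protein transcripts is shown by their summed level per length. The 6 binding proteins summed to 16.7 and 17.3 FPKM in the controls and 15.0 and 15.4 FPKM in the ETS1 libraries, without overlap. IGFBP2 made up 65.9 ± 1.17% of the sum in the controls and 51.4 ± 2.19% in the ETS1 libraries (SD, n = 2 each). Without IGFBP2 the other 5 summed to 5.84 and 5.76 FPKM in the controls and 7.06 and 7.74 FPKM in the ETS1 libraries, so the remainder went the other way. The share of IGFBP5 was 10.3 ± 0.729% against 14.5 ± 0.692%, that of IGFBP6 6.07 ± 0.453% against 11.6 ± 2.50% and that of IGFBP7 2.88 ± 0.0482% against 7.20 ± 0.457% (SD, n = 2 each). The share of IGFBP4 was 12.8 ± 0.536% against 11.9 ± 0.163% (SD, n = 2 each). Relative to IGF1R, the summed binding proteins were 2.56 and 2.64 in the controls and 2.53 and 2.60 in the ETS1 libraries, and these ranges overlapped. In bulk RNA, fewer cells with a transcript and less of it per cell cannot be told apart.

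**Figure D3:**
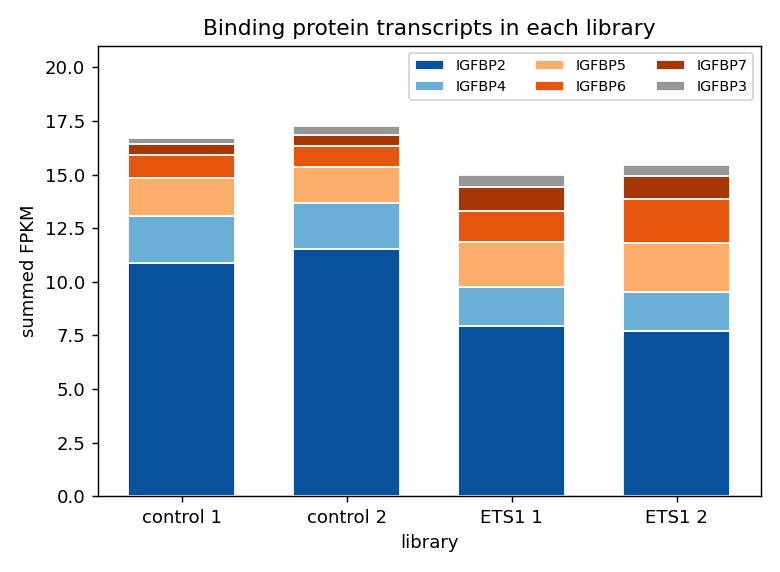
Stacked FPKM of the 6 binding proteins (vertical axis, from 0) in each library, one bar per library. The IGFBP2 block shrinks from 10.9 and 11.5 to 7.94 and 7.69 FPKM, and the blocks of IGFBP5, IGFBP6 and IGFBP7 are larger in both ETS1 libraries.

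IGFBP2 and IGFBP5 are neighbours on chromosome 2, at 216632828 to 216664436 on the plus strand and 216672105 to 216695525 on the minus strand (GENCODE 29 on GRCh38), with their ends 7668 bases apart. Their changes had opposite signs, -0.47 and 0.23 on the log2 scale. The ratio of IGFBP2 to IGFBP5 was 6.04 and 6.85 in the controls and 3.78 and 3.33 in the ETS1 libraries. The median change of the 815 tested genes on chromosome 2 was 0.089, and 3.07% of them had a lower log2 change than IGFBP2. With the chromosome median removed, IGFBP2 had -0.56 (limma adjusted p = 0.000385), and IGFBP5 had 0.14 (adjusted p = 0.0878) and did not pass. In the 16 other tested genes within 2 Mb of IGFBP2, 6 were called lower and 6 higher.

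**Figure D4:**
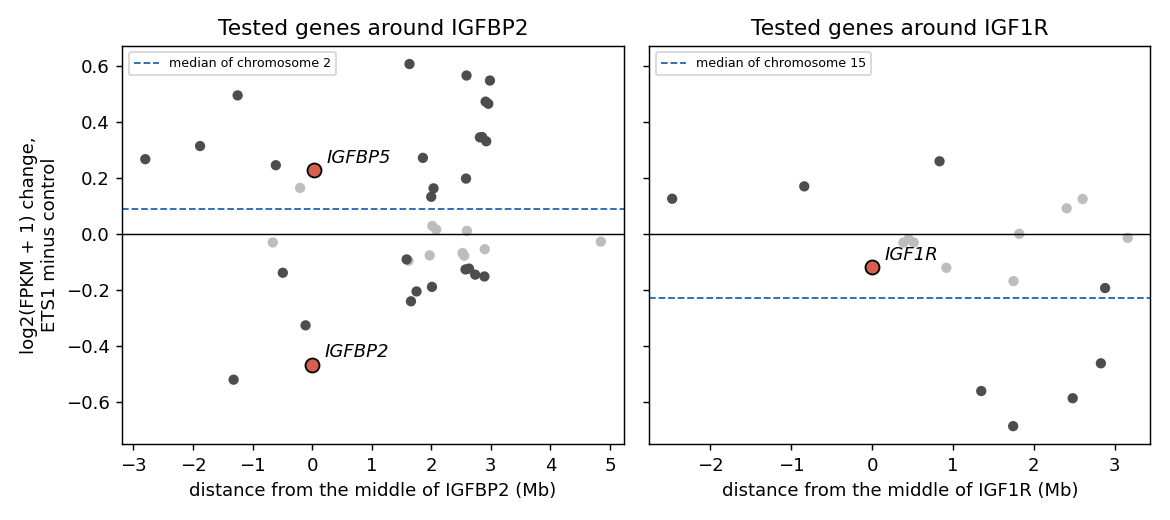
Log2(FPKM + 1) change, ETS1 minus control, of tested genes by distance in Mb from the middle of IGFBP2 (left) and IGF1R (right); dark points passed the threshold, pale points did not, and the dashed line is the chromosome median. IGFBP2 and IGFBP5 sit on opposite sides of 0 at nearly the same place, and IGF1R at -0.12 lies above the chromosome 15 median of -0.23.

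Of the ligands, IGF1 was at most at 0.00611 FPKM in any library and INS was listed at 0 in all 4. IGF2 had 0.556 and 0.567 FPKM in the controls and 1.09 and 1.30 FPKM in the ETS1 libraries, with 157 and 175 reads behind the first pair and 437 and 515 behind the second. The groups did not overlap, and the ETS1 mean was 2.13 times the control mean. IGF2 was under the filter, and voom gave a log2 change of 1.08 (95% interval 0.80 to 1.36, adjusted p = 2.27e-05). Among the other receptors and binding proteins of the list, only KAZALD1 was tested, with -0.097 (limma adjusted p = 0.224), and the other 4 were at most at 0.632 FPKM. Of 7 genes for binding protein proteases and their inhibitors 2 were tested. HTRA1, a secreted protease with an IGFBP-like domain, rose from 9.18 and 9.20 FPKM to 11.4 and 11.6 FPKM, and STC2, an inhibitor of PAPP-A, had a log2 change of -0.019 (limma adjusted p = 0.552). STC1, its relative and also an inhibitor of PAPP-A, was under the filter. It had 0.935 and 0.719 FPKM in the controls and 0.390 and 0.430 FPKM in the ETS1 libraries. For STC1 voom gave a log2 change of -0.99 (adjusted p = 0.000522). The limma fit with no filter gave it -0.37 (adjusted p = 0.0657), which did not pass. The ETS1 mean of STC1 (0.410 FPKM) was under the 0.5 FPKM limit of the voom fit, so it entered that fit only through its controls. PAPPA was at most at 0.0171 FPKM.

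Downstream of the receptors, 12 adaptor and phosphatase genes were tested, of which 6 rose and 3 fell, where 30.7% of all tested genes were called higher and 28.4% lower. IRS4, a relative of IRS1, had 18.4 and 19.3 FPKM in the controls and 30.5 and 30.2 FPKM in the ETS1 libraries, a log2 change of 0.66 (limma adjusted p = 0.000516). Its level was thus far above that of IRS1 in every library. SOS1, the exchange factor that activates RAS, rose by 0.51 on the log2 scale. GRB14, an inhibitory adaptor of the insulin receptor, fell by 0.40 and SH2B2, another adaptor, by 0.37. The SH2B2 call (limma adjusted p = 0.0448) was lost with no filter (0.162) and with no intensity trend (0.0513). It was also lost without control library 1, at -0.43, without control library 2, at -0.32, and without ETS1 library 1, at -0.22. Of 12 tested PI3K and AKT genes, 9 rose and 3 did not pass, with a median of 0.26, against the same 30.7% called higher over all genes. AKT2, a kinase activated through PI3 kinase, had 9.72 and 9.73 FPKM in the controls and 12.4 and 12.4 FPKM in the ETS1 libraries, a log2 change of 0.32 (limma adjusted p = 0.00134).

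Of 16 genes of the TOR complexes and AKT targets, 5 rose, 5 fell and 6 did not pass. RICTOR, a subunit of the second TOR complex, rose by 0.33 on the log2 scale (limma adjusted p = 0.0129), a call lost with no filter (0.0605), without ETS1 library 1, at 0.33 (0.0565), and without ETS1 library 2, at 0.32 (0.0646). RPS6KB1, a kinase under the first complex, rose by 0.25 (limma adjusted p = 0.0420), with controls of 9.16 and 7.75 FPKM. Its call was lost with no filter (limma adjusted p = 0.150), with no intensity trend (0.0560) and with the replicate block (0.0597). The RPS6KB1 call was also lost without control library 2, at 0.15, without ETS1 library 1, at 0.28, and without ETS1 library 2, at 0.22. EIF4EBP1, a translation repressor under mTOR, had 407 and 416 FPKM in the controls and 274 and 279 FPKM in the ETS1 libraries, a log2 change of -0.57 (limma adjusted p = 0.000486). It lies on chromosome 8, and the median over that chromosome's tested genes was -0.16. MLST8, a subunit of both complexes, fell by 0.29. The proteins that bind IGF2 mRNA were all tested, and IGF2BP2 rose by 0.24 and IGF2BP3 by 0.23, while IGF2BP1 had 0.086 (limma adjusted p = 0.0549). IGF2BP1 passed under quantile normalization, at 0.13 (limma adjusted p = 0.0198), and under voom, at 0.091 (adjusted p = 0.0261). The IGF2BP2 call was lost with no filter (adjusted p = 0.0598) and without ETS1 library 1, at 0.21 (0.0614), and the IGF2BP3 call without ETS1 library 1, at 0.23 (0.0547), and without ETS1 library 2, at 0.23 (0.0607). Over the 59 genes of these lists, 46 were tested, 23 rose, 8 fell and 15 did not pass. Their median log2 change was 0.093 against 0.016 over all genes, where 30.7% were called higher and 28.4% lower.

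**Figure D5:**
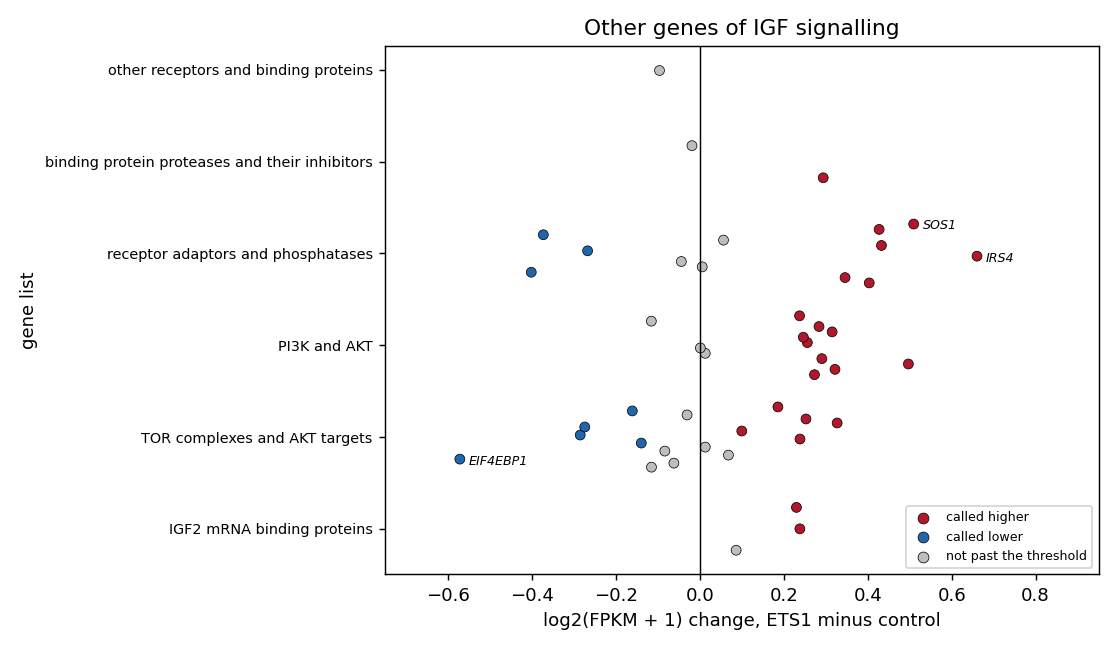
Log2(FPKM + 1) change, ETS1 minus control, of the 46 tested genes of IGF signalling that are not receptors, IRS1 or IGFBP2 to IGFBP7, by list; red points were called higher, blue lower and grey did not pass. The PI3K and AKT row has 9 red points and 3 grey, and IRS4 at 0.66 and EIF4EBP1 at -0.57 mark the ends.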

How the data were processed

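Bulk RNA-seq of 2 ETS1 and 2 control libraries of TE5 was analysed. The authors deposited FPKM for 55764 gene names. The authors' tools HISAT2, HTSeq and DESeq2 and their build hg38 are named in the submitters' processing notes, with no version or role; annotation and use of strand are not given in the sources used here. A second table holds the authors' deposited comparison of 16652 genes. Per the file headers, its signal column is a mean normalized count. Its log2 fold changes were deposited with standard errors, and whether they were shrunk is not given in the sources used here. Each p-value there, raw or adjusted, was computed by the authors.

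From the FPKM, log2(FPKM + 1) was taken for the 14306 genes whose mean reached 1 FPKM and fitted with limma 3.58.1 in R 4.3.3 (group term, intensity trend, two-sided, Benjamini-Hochberg adjustment over all genes tested, threshold 0.05). Changes on this scale are understated at low FPKM. Reads were recovered from the deposited mean normalized counts and the FPKM steps. Of the values of 2885 genes with a mean normalized count under 100, 99.3% came within 0.05 of a whole number; over a mean of 1000 (8566 genes) it was 87.8%, and 77.9% of 13395 inferred gene lengths were within 2% of the annotation. The recovered reads, 40356722 to 57269891 per library, cover the genes of the authors' comparison only. Replicates differed by more than counting noise (mean chi-square per gene of 3.88 and 3.90). Positions are from GENCODE 29 by gene name, found for 84.0% of tested genes. The limma step was tested on simulated data. The 10 genes, the pathway lists and the tests were chosen with earlier results of these data known. Named genes are the 10, ETS1, the ligands, the markers, and per list at most the 2 largest rises and 2 largest falls past the threshold; some list members are counted but not reported by name here; KAZALD1, STC1, STC2, PAPPA, IGF2BP1 and POLR2B were named after their values were seen. Alternatives are given in the closing section. The marker PECAM1 was not analysed here.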

Additional observations from a re-analysis of the deposited data

How the results depend on the processing

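The alternatives were a pseudocount of 0.1, a filter at 5 FPKM or none, quantile normalization, trimmed-mean scaling, a replicate block, no intensity trend, voom on recovered reads, removal of the chromosome median, the authors' deposited values and leaving out each library. IGFBP2 kept its direction and its call under all 14. IGF1R kept its call under 7 and lost it under 6. With the chromosome median removed it reversed, to 0.11. IGF2R kept its call under 6 of 14, IGFBP4 under 5 of 13, IGFBP5 under 7 of 13 and IGFBP6 under 9 of 13, and none of these 4 changed direction. INSR never passed, and its sign turned under quantile normalization (-0.027) and without control library 2 (range without each library -0.0057 to 0.068).

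Of the pathway genes named, STC2 reversed under quantile normalization, to 0.093 (limma adjusted p = 0.0317). With the chromosome median removed, STC2 passed in the other direction, at -0.11 (limma adjusted p = 0.0152). IGF2BP1 passed under quantile normalization and under voom. Of the 10 genes, the number called higher was 3. It was 1 with the filter at 5 FPKM (4 genes tested), 1 with the replicate block, 5 under voom on recovered reads (9 genes tested) and 0 to 1 when a library was left out. The 5 under voom include IRS1 and IGFBP7, which entered that fit only through the ETS1 libraries. The number called lower was 3. It was 1 with no filter, 1 with the replicate block and 1 without each library in turn; the one left was IGFBP2. Among the pathway lists 15 to 21 genes were called higher and 5 to 8 lower when a library was left out, against 23 and 8. Over all genes 4394 were called higher, 2562 with that filter (8215 tested), and 2754 to 3989 when a library was left out. These fits have fewer libraries or genes. Same-numbered libraries did not deviate together (correlation -0.0456 across genes), so the replicate numbers were not taken as pairs. Depth limits IRS1, IGFBP3, IGFBP6 and IGFBP7 most, with at most 167 reads in a control.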
